A study of Mus musculus with 9 samples.

Results

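The probes described here carry names that begin with humanlincRNA on a mouse lncRNA array, and stand for mouse counterparts of human long intergenic non-coding RNAs (lincRNAs). They were chosen by name alone, with controls left out, and made up 1217 of the 59709 probes on the array. They covered 609 numbered regions, with 608 probes on the plus strand and 609 on the minus strand, and 608 regions had a probe on each strand. The name is the label of the array's design. The files used here give these probes no sequence, no coordinate and no host gene, so neither the strand that holds the human transcript nor a position in an exon or intron is stated for any region.

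Long intergenic non-coding RNAs are transcripts without a known protein product that arise between protein-coding genes. Many are conserved between mammals more by position or by short stretches than along their whole length, so that a mouse probe can be placed in a region that matches a human lincRNA without a known mouse transcript there. A transcript is read from one strand, and a probe on each strand lets both directions of transcription be followed apart. In the heart, lncRNAs have been linked to the growth of cardiomyocytes, to their chromatin state and to their response to load.

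Total RNA of mouse cardiac tissue was measured on 9 arrays, 3 in each of 3 groups. The WT group was wild type of the F1 strain B6SV129F1. The TAC group was of that strain and wild type too, and was labelled with TAC surgery. TAC is the usual abbreviation of transverse aortic constriction, a narrowing of the aorta that raises the pressure against which the left ventricle pumps. No sham operation is named for the WT group. For the CnA group the labels give Myh6-CnA as the strain, a name used for mice in which calcineurin A is driven by the promoter of the cardiac alpha-myosin heavy chain gene. Calcineurin is a phosphatase that activates NFAT transcription factors and drives hypertrophic growth of the heart. The background strain of the CnA group, ages, sexes and times after surgery are not given in the labels used here. The labels number the samples of a group without naming animals, so p-values measure the spread between these samples. No cardiac marker gene was matched to a probe by its symbol, so the labelled tissue was not checked against markers.

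Each value is the log2 of a probe's processed signal minus the 75th percentile of that array, so a value of 0 lies at that percentile. A probe counts as read on an array where the scanner software flagged its signal as well above background. Probes read on each of the 3 arrays of some group were tested. A probe was called when its adjusted p, from limma's moderated test with Benjamini-Hochberg adjustment over all 44224 tested probes, was under 0.05. Before scaling, the 75th percentile was an intensity of 427.3 to 454.3 on the WT arrays, 262.5 to 279.5 on the TAC arrays and 283 to 300.2 on the CnA arrays. Scaling therefore bears on the direction of small changes. The median tested probe stood 0.32 higher in TAC and 0.22 higher in CnA than in WT on the log2 scale, and without scaling it stood at -0.40 and -0.39. As inferred from scan time and array position in the headers, the 3 WT arrays and 1 TAC array shared a row of a slide. The other 2 TAC arrays shared a row with 2 CnA arrays, and the last CnA array was on another slide. The headers do not name the slides themselves.

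Of the 1217 probes, 671 could be tested, 325 on the plus and 346 on the minus strand. That was 55.1% of the humanlincRNA probes, against 74.1% of all probes. One further probe was left out for an outlier flag, and 545 were not tested, of which 189 were read on some array. No array read 356 of the probes, and 538 were read on all 9. Single arrays read between 633 and 727 of them. By region, 478 of 609 (78.5%) had a tested probe. Both strands were tested in 193 regions, only the plus strand in 132, only the minus strand in 153 and neither in 131. No humanlincRNA probe was saturated. Tested probes were dim as a class, with a median mean signal of -1.85 and a highest of 4.84, against -1.16 and 10.81 over all tested probes.

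Detection itself differed between groups for few of them. Being read on every array of some groups and on no other array was met by 5 probes. humanlincRNA0055-_P1 and humanlincRNA0646+_P1 were read in WT only, and humanlincRNA1382+_P1 in CnA only. humanlincRNA0881-_P1 was read in WT and TAC but not in CnA, and humanlincRNA1398+_P1 in TAC and CnA but not in WT.

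The largest fall in both models was that of humanlincRNA0055-_P1. Its values were -1.36, -0.53 and -0.63 in WT, -4.28, -5.72 and -5.31 in TAC, and -4.67, -4.01 and -5.89 in CnA. All 3 WT arrays lay far above the arrays of the models, none of which read the probe, so the loss is known only as a bound. Signal was at least 7.06-fold higher in WT than in TAC and at least 8.29-fold higher than in CnA, taking for each dim array the lowest signal of any probe read there or the probe's own if higher. Its WT mean was -0.84 ± 0.45, its TAC mean -5.10 ± 0.75 and its CnA mean -4.85 ± 0.95 (SD, n = 3). limma's adjusted p was 0.000202 for TAC and 0.000335 for CnA, and the probe was called under each of the alternatives tried. It passed the filter through WT alone, the group where it is high, so these calls are no support. The opposite strand of the same region did not share this loss. humanlincRNA0055+_P1 was read on all 9 arrays and differed by 0.08 in TAC (limma adjusted p = 0.852) and 0.02 in CnA (adjusted p = 0.961). In whole tissue, fewer cells of a type and less RNA per cell cannot be told apart.

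Hearts labelled TAC surgery were compared with WT to ask which of these regions change with that operation. On the scaled signal 330 of the 671 tested probes were called, 295 higher and 35 lower, which is 49.2% of them. Over all tested probes 60.1% were called, 39.6% higher and 20.5% lower. With normexp background correction and percentile scaling the shares were 74.1% and 73.7%. With normexp and quantile normalization they were 42.6% and 55.6%. The order of these shares thus turned with normexp under percentile scaling but not under quantile normalization. The median change of the humanlincRNA probes was 0.44, against 0.32 over all tested probes. Counted from that shift of 0.32, 291 called probes were higher and 39 lower. The direction split moved with the scaling. It was 250 higher and 37 lower with quantile normalization, 147 and 51 with cyclic loess, and 24 and 203 without scaling. A change of 2-fold or more with a call was reached by 63 higher and 8 lower probes, or 10.6% (over all tested probes 14.0% higher and 13.2% lower, 27.2% in all). Values of the 2 groups did not overlap for 405 probes, 60.4% of those tested, where the background over all tested probes was 69.1%. With the slide row as a fixed block 194 were called (28.9%, against 40.6% of all tested probes).

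Larger fitted falls in TAC than those given next belonged to dim probes that no TAC array read, humanlincRNA0055-_P1 among them. Among probes read in both groups, the falls that led the list were as follows. humanlincRNA2163-_P1 read 5.28, 5.38 and 5.49 in WT, and 3.87, 3.97 and 3.90 in TAC. The groups were far apart and each was tight, and the probe fell by 1.47 ± 0.10 (SE) on the log2 scale (limma adjusted p = 7.46e-06). In CnA it read 3.72, 3.81 and 3.66, a fall of 1.65 (adjusted p = 5.64e-06), and it was lower in both models under each alternative, with or without scaling. In unscaled intensity it went from 16600, 18400 and 20500 in WT to between 3840 and 4380 in TAC.

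humanlincRNA2296+_P1, which had the highest mean signal of the humanlincRNA probes, read 5.76, 5.6 and 5.61 in WT, 4.72, 4.67 and 4.48 in TAC and 4.03, 4.10 and 4.56 in CnA. No model array reached a WT array. Its log2 change was -1.03 in TAC (limma adjusted p = 0.000633) and -1.42 in CnA (adjusted p = 0.000125). Within the slide row that held 1 TAC array the change was -0.93 (adjusted p = 0.0536). humanlincRNA2199+_P1 read 4.14, 4.52 and 4.48 in WT and 3.05, 3.26 and 2.84 in TAC, a change of -1.33 (adjusted p = 0.0042). Its CnA arrays read 2.83, 2.59 and 3.75, so that 1 of them stood closer to WT than the other 2. humanlincRNA0065-_P1 (4.33 to 4.39 in WT, 3.30 to 3.42 in TAC) and humanlincRNA1828+_P1 (1.72 to 1.76, then 0.68 to 0.84) each fell by about the same amount, with changes of -0.98 and -1.0. Both fell under each scaling tried.

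The 6 largest rises in TAC, among probes read on all arrays of both groups and without overlap, lay between 1.61 and 2.04 and started from dim or middling signal. Each of them was also higher in TAC without scaling, though the call of humanlincRNA1812+_P1 was lost there (adjusted p = 0.0518). Within the slide row that held the WT arrays and 1 TAC array their values were 1.28 to 2.17 (limma adjusted p from 0.071 to 0.169, with a lone TAC array taken to vary like the others). humanlincRNA1369+_P1 read -1.60, -0.75 and -2.84 in WT and 0.44, -0.40 and 0.88 in TAC. The WT arrays were widely spread, and the rise of 2.04 ± 0.51 (SE) had a limma adjusted p of 0.00867. With the slide row as a block it was 2.17 (adjusted p = 0.0748). humanlincRNA2514-_P1 was steadier in TAC, with -3.01, -4.05 and -3.77 in WT and -1.92, -1.83 and -1.83 in TAC. It rose by 1.75 (adjusted p = 0.000343), and its CnA arrays, at -2.44, -2.19 and -2.29, lay between the other groups.

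humanlincRNA2207+_P1 rose from -2.57, -2.08 and -1.48 to -0.47, -0.47 and -0.34 in TAC, a change of 1.62 (limma adjusted p = 0.000576). humanlincRNA0115+_P1 rose from -3.03, -3.46 and -2.75 to -1.80, -1.38 and -1.22, a change of 1.61 (adjusted p = 0.000625). Neither had a TAC array as low as a WT array. humanlincRNA1812+_P1 changed by 1.72 with 1 WT array (-1.58) well below the other 2 (-0.03 and -0.02), and humanlincRNA1145-_P1 by 1.64. The largest called rise in TAC, 2.62, was that of humanlincRNA0635+_P1, which was not read on all WT arrays and is described with the comparison of the models. One probe unread in WT was read on every TAC array. humanlincRNA1398+_P1 was at least 2.11-fold higher in TAC and at least 1.93-fold higher in CnA (limma adjusted p = 0.000156 and 0.000346). It passed the filter through the groups where it is high, so these calls are no support.

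Hearts with the Myh6-CnA label were compared with WT to ask the same of that model. On the scaled signal 295 of 671 probes were called, 237 higher and 58 lower, or 44.0% where 56.8% of all tested probes were called (36.2% higher and 20.5% lower). Their median change was 0.28, against 0.22 over all tested probes, and the split was the same when counted from that shift. With quantile normalization 195 were higher and 70 lower, with cyclic loess 136 and 86, and without scaling 38 and 234. A 2-fold change with a call was reached by 67 higher and 21 lower probes, or 13.1% (over all tested probes 13.9% higher and 11.4% lower, 25.4% in all). Values did not overlap for 333 probes (49.6%, with a background of 62.4%). No slide row held both groups, so the row as a fixed block links CnA to WT through the TAC arrays alone. With that block 74 probes were called (11%, against 18.9% of all tested probes). This comparison and that of TAC share the WT arrays.

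The change of largest size among probes read in both groups was the rise of humanlincRNA2268-_P1. It read 0.67, -1.06 and -1.14 in WT, -0.28, -0.06 and -0.24 in TAC, and 2.67, 2.76 and 2.62 in CnA. The 3 CnA arrays stood together above all other arrays, and 1 WT array stood apart from the other 2. Its WT mean was -0.51 ± 1.02, its TAC mean -0.19 ± 0.12 and its CnA mean 2.69 ± 0.07 (SD, n = 3). It was 9.15-fold higher in CnA than in WT (3.19 on the log2 scale, limma adjusted p = 0.000355) and 7.35-fold higher than in TAC (2.88, adjusted p = 0.00258). TAC differed from WT by 0.32 (adjusted p = 0.537). With the slide row as a block the rise over WT was 3.09 (adjusted p = 0.0602), and the difference from TAC within the row that both models shared was 2.86 (adjusted p = 0.00267).

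The next largest rises in CnA, again among probes read in both groups, were those of humanlincRNA1369+_P1 and humanlincRNA0115+_P1. The former read 0.57, 0.76 and 0.36 in CnA, a rise of 2.29 (limma adjusted p = 0.00527). The latter read -0.76, -1.36 and -0.82, a rise of 2.10 (adjusted p = 0.00017). The difference of each from its TAC level was not called (limma adjusted p = 0.78 and 0.211).

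humanlincRNA1779-_P1 read -0.94, -1.11 and -0.53 in WT, 0.12, 0.37 and 0.79 in TAC, and 0.65, 0.89 and 1.19 in CnA. humanlincRNA1780+_P1, from the region with the next number, read -1.68, -1.18 and -1.67, then 0.06, -0.71 and -0.03, then -0.05, 0.26 and 0.51. Their changes were alike in size, 1.29 and 1.28 in TAC and 1.77 and 1.75 in CnA, and all were called (largest limma adjusted p = 0.0023). Whether the regions neighbour each other is not given in the files used. humanlincRNA1432-_P1 rose by 1.74 in CnA (adjusted p = 0.00124) and by 1.61 in TAC. These rises in CnA kept their direction without scaling.

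Among probes read in both groups, humanlincRNA1995-_P1 had the largest fall in CnA. It read 1.65, 1.70 and 1.62 in WT, 0.74, 0.58 and 0.51 in TAC, and -0.18, -0.00 and -0.31 in CnA. The 3 groups formed 3 separate steps. The fall was 1.04 in TAC and 1.82 in CnA (limma adjusted p = 9.97e-05 and 7.17e-06), and CnA was lower than TAC by a change of -0.78 (adjusted p = 0.00251).

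humanlincRNA0847-_P1 showed the same order at a high level, with 4.90, 4.98 and 4.79 in WT, 4.22, 4.11 and 3.97 in TAC, and 3.20, 3.50 and 2.70 in CnA. No 2 groups overlapped. It changed by -0.79 in TAC, -1.75 in CnA and -0.96 between the models (limma adjusted p = 0.00738, 0.000125 and 0.0109), and the last of these was not called with the slide row as a block (adjusted p = 0.0567). humanlincRNA0318-_P1 went from 4.23 to 4.28 in WT to 2.64 to 3.14 in CnA, a change of -1.35. humanlincRNA2255+_P1 changed by -1.36, with 0.42, 0.43 and 0.62 in WT and -0.70, -0.68 and -1.22 in CnA. Both were lower in CnA under each scaling tried.

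Below background in CnA, humanlincRNA2010-_P1 was at least 2.49-fold higher in WT (-2.61, -2.72 and -2.39 in WT, means of -2.57 in WT and -4.76 in CnA, limma adjusted p = 0.000206). Another 8 probes were read on every CnA array and on no WT array, with bounds of up to 2.04-fold for humanlincRNA1475-_P1 (adjusted p = 0.00228). These probes, humanlincRNA1398+_P1 among them, and humanlincRNA2010-_P1 passed the filter through groups where they are high. Calls among them are thus no support. The call of humanlincRNA1475-_P1 was lost under 1 of 20 alternatives. The other bounds were under 2-fold.

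The balance of rises and falls among the humanlincRNA probes differed with how bright a probe was. All tested probes were put into 4 classes of equal size by mean signal, from 1 for the dimmest to 4 for the brightest. The humanlincRNA probes numbered 232, 206, 162 and 71 in them. In classes 1 to 3 their median change in TAC was 0.46, 0.46 and 0.45, above the medians of 0.29, 0.32 and 0.30 over all probes of those classes. In class 4 it was 0.12, below the 0.39 of all probes. There, 23 were called higher and 20 lower in TAC, out of 71 (60.6% called, against 75.1% of all probes of the class).

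In CnA the medians of the humanlincRNA probes were 0.35, 0.29 and 0.29 in classes 1 to 3, against 0.21, 0.21 and 0.19, and -0.14 in class 4, against 0.29. Of the 71 brightest, 15 were called higher and 23 lower (53.5% called, against 71.9% of all probes of the class). How the calls over all probes of class 4 split by direction was not counted here. The brightest class held 20 of the 35 humanlincRNA falls in TAC and 23 of the 58 in CnA. Its median stayed below that of all probes of the class with quantile normalization (0.20 against 0.22 in TAC, -0.07 against 0.15 in CnA) and with cyclic loess (-0.06 against 0.01, and -0.28 against 0.00). Without scaling the medians were -0.59 against -0.32 in TAC and -0.75 against -0.32 in CnA. Mean signal was taken over the same arrays, and these medians are a description without a test.

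Among the brightest, humanlincRNA1773+_P1 did not follow the falls in TAC. It read 4.33, 4.35 and 4.41 in WT and 4.35, 4.28 and 4.18 in TAC, a change of -0.09 that was not called (limma adjusted p = 0.485). In CnA it read 3.79, 4.03 and 4.09, a change of -0.39 (adjusted p = 0.0143). A change near 0 on the scaled signal lies 0.41 below the median shift in TAC, and without scaling the TAC value was lower by a called amount, so that scaling decides how this probe is read.

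The strands of a region were compared next, to ask whether they move together. The difference between the plus and the minus probe on an array is not changed by subtracting a constant from that array, as the percentile scaling does, though quantile normalization can change it. It was fitted with limma over all 876 strand pairs of the array, of any probe class, in which all 9 arrays read both probes. Of these, 125 were humanlincRNA regions. In TAC the strands changed by different amounts in 25 of the 125 regions. The change of the plus strand minus that of the minus strand was above 0 in 13 and below 0 in 12. That is 20% of them, and over all strand pairs 29.0% were called. In CnA it was 37 regions (29.6%, background 36.8%), with 15 above and 22 below 0. With quantile normalization 28 and 38 regions were called (22.4% and 30.4%, against 29.1% and 38.1% of all strand pairs). With the slide row as a fixed block these counts were 11 and 9, and over all pairs 11.3% and 4.79%.

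Change on one strand said little of change on the other. Across the 125 regions, Pearson's r between the strands' changes was 0.04 in TAC and 0.02 in CnA, and Spearman's rho was 0.06 and 0.02. The points share all arrays, and these values are descriptions. The median absolute difference between strands was 0.46 in TAC and 0.53 in CnA, and the largest were 2.57 and 3.12. In TAC both strands were called higher in 30 regions (24.0%, against 23.5% of all strand pairs) and both lower in 0 (against 1.37%). One strand alone was called in 64 (51.2%, against 49.7%) and neither in 23. In CnA both were called higher in 16 (12.8%, against 15.3%) and both lower in 1 (0.8%, against 1.71%), one alone in 65 (52.0%, against 49.2%) and neither in 32. These shares lie near those of all strand pairs. These counts of calls depend on scaling.

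On the scaled signal the strands were called in opposite directions in 8 regions in TAC, 6.4% of the 125, where 5.59% of all strand pairs were. In CnA it was 11 of the 125 (8.8%, against 8.56%), and 1 more, humanlincRNA0881, whose minus probe no CnA array read. The shares of 6.4% and 8.8% too lie near the background. The minus probe of humanlincRNA0881 passed the filter through WT and TAC, where it is high, so its call is no support. Its bound for WT over CnA was 0.967-fold, which shows no fall. The 12 regions given below for CnA include it. Since the regions were chosen by the calls of their strands, the tests of the difference between strands given for them restate that choice in part. With the slide row as a fixed block 4 of the 8 remained oppositely called in TAC and 0 of the 12 in CnA, while the signs of both strands stayed opposite in all.

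The falling strand was lower in all 8 and all 12 under quantile normalization, cyclic loess and no scaling, and in 7 and 11 with normexp background correction. The rising strand was higher in all 8 and all 12 under quantile normalization, cyclic loess and normexp. Without scaling, which moves all probes of an array alike, it was higher in 4 of 8 in TAC and 5 of 12 in CnA. Opposite calls of both strands were kept in fewer regions than opposite signs under most of these settings. Without scaling they were kept in 1 of 8 in TAC and 1 of 12 in CnA. With cyclic loess it was 6 and 7, with quantile normalization 7 and 9, and with normexp 7 and 11.

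humanlincRNA2163 had the widest divergence in TAC. Its minus probe fell as given above, while its plus probe read 1.93, 1.71 and 1.61 in WT, 2.86, 2.83 and 2.88 in TAC, and 2.46, 2.66 and 2.12 in CnA. Every model array was above every WT array on the plus strand and below on the minus strand. The plus probe rose by 1.1 in TAC and 0.66 in CnA (limma adjusted p = 0.000376 and 0.00599), and was still higher in TAC without scaling (0.39, adjusted p = 0.0375) but by 0.05 in CnA (adjusted p = 0.746). The difference of change, plus minus minus, was 2.57 ± 0.19 (SE) in TAC and 2.32 ± 0.19 in CnA (adjusted p = 2.24e-05 and 4.23e-05 over the strand pairs).

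humanlincRNA1995 diverged by 1.77 in TAC and 2.40 in CnA (limma adjusted p = 0.000391 and 7.06e-05). Its plus probe, dim at -3.72, -3.69 and -3.23 in WT, read -2.69, -2.72 and -3.06 in TAC and -3.01, -3.08 and -2.83 in CnA. That rise of 0.72 and 0.58 was 0.01 and -0.03 without scaling, so that only the fall of the minus strand held there.

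In humanlincRNA0065 the minus probe fell and the plus probe, at -1.35, -1.78 and -1.77 in WT and -0.71, -1.05 and -1.13 in TAC, was 0.67 higher in each model, though -0.04 in TAC and 0.06 in CnA without scaling. The strands differed by 1.65 in TAC and 1.83 in CnA (limma adjusted p = 0.000195 and 0.000112). In humanlincRNA1828 it was the plus probe that fell. The minus probe, at -2.26, -2.54 and -2.31 in WT, read between -1.79 and -1.72 in TAC, 0.61 higher with scaling and -0.11 without. The differences were -1.60 and -1.71 (adjusted p = 0.000114 and 8.2e-05).

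Of the other regions called oppositely in TAC, humanlincRNA2410 differed by 1.69 (limma adjusted p = 0.00117). Its plus probe rose from 0.45, 0.61 and 0.80 to 1.91, 1.64 and 1.82, the only rise of the 8 beside that of humanlincRNA2163 above 1, and its minus probe went from -0.03, 0.07 and 0.03 to -0.37, -0.53 and -0.58. In CnA that plus probe read 1.24, 1.49 and 0.47 and was not called (0.45, adjusted p = 0.15). The differences in humanlincRNA0117, humanlincRNA0965 and humanlincRNA2314 were -1.41, -0.83 and -0.80. In the last of these the faller was the dim plus probe (-0.38), which turned to 0.18 with normexp background correction.

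In CnA, humanlincRNA1230 diverged by 1.98 (limma adjusted p = 0.000477). Its minus probe read 1.91, 2.23 and 1.88 in WT, 1.41, 1.38 and 1.37 in TAC, and 1.04, 1.05 and 1.23 in CnA, while its plus probe read -2.40, -1.49 and -1.50, then -1.47, -1.19 and -0.88, then -0.82, -0.85 and -0.49. The minus strand fell in steps, and the plus strand was highest in CnA, by 1.08 over WT (adjusted p = 0.00881). That rise was 0.47 without scaling (adjusted p = 0.195) and 0.53 with the slide row as a block (adjusted p = 0.467). With that block the difference between strands was 1.46 (adjusted p = 0.118). humanlincRNA1963 (-1.74), humanlincRNA0518 (-1.31), humanlincRNA0198 (-1.29) and humanlincRNA2246 (1.25) also differed between strands in CnA, with adjusted p between 0.00253 and 0.00565. With the slide row as a block the calls of humanlincRNA1963 and humanlincRNA0518 were lost (limma adjusted p = 0.106 and 0.235). Those of humanlincRNA0198 and humanlincRNA2246 were kept (adjusted p = 0.0334 and 0.0397).

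humanlincRNA2268 was the widest divergence in CnA and between the models. Against the rise of its minus probe, its plus probe read -1.20, -1.97 and -1.54 in WT, -1.06, -1.20 and -1.36 in TAC, and -1.23, -1.38 and -1.89 in CnA, and its groups overlapped. The plus probe changed by 0.07 in CnA (limma adjusted p = 0.817), a change whose sign turned under several alternatives. The change of the plus strand minus that of the minus strand was -3.12 against WT and -3.17 against TAC (limma adjusted p = 0.000204 and 0.00197 over the strand pairs). Between the models 2 of the 125 regions were called, this one and humanlincRNA2253 (-1.26, adjusted p = 0.0285), or 1.6% where 2.4% of all strand pairs were called. With the slide row as a block the differences were -2.89 (adjusted p = 0.052) and -1.5 (adjusted p = 0.0656), and the call of humanlincRNA2253 was lost under 7 of 14 alternatives.

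The models were compared directly to ask where they differ. A total of 48 of the 671 probes were called, 7 higher and 41 lower in CnA than in TAC, or 7.15% where 17.4% of all tested probes were called (10.5% higher and 6.89% lower). Without scaling the calls were 16 higher and 18 lower, with quantile normalization 6 and 49, and with cyclic loess 9 and 30. The median change was -0.16, against -0.04 over all tested probes. Values did not overlap for 225 probes (33.5%, background 46.1%). A 2-fold change was reached by 3 higher and 7 lower probes, or 1.49% (over all tested probes 4.69% higher and 1.59% lower, 6.28% in all).

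This count was the least stable of the comparisons. It was 14 without TAC replicate 2 (2.09%, against 9.82% of all tested probes) and 24 without TAC replicate 3 (3.58%, against 10.8%). Without TAC replicate 1 or without CnA replicate 1 it was 20 (2.98%, against 10.3% and 10.7%). With the slide row as a fixed block it was 12 (1.79%, against 6.55%). Within the row shared by 2 arrays of each model 44 were called (6.56%, against 17.1%), 16 higher and 28 lower. Of the 41 lower probes, 15 were called higher in TAC and not called in CnA against WT, 13 were not called in TAC and called lower in CnA, and 7 were called lower in both. Of the 7 higher probes, 5 were called higher in both models. How often such patterns occur over all tested probes was not counted here, so these counts describe the probes without a background.

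Among probes higher in CnA, humanlincRNA2268-_P1 was followed by humanlincRNA1070+_P1, which read -4.04, -4.43 and -4.25 in WT, -3.49, -3.31 and -3.49 in TAC, and -2.33, -2.03 and -2.61 in CnA. It was 1.1 higher in CnA than in TAC (limma adjusted p = 0.00305), though 0.31 with normexp (adjusted p = 0.0665). humanlincRNA1671+_P1 read -2.44, -2.48 and -2.32, then -1.87, -1.70 and -1.62, then -1.0, -0.81 and -1.07. Its groups formed 3 steps upward, and the difference of 0.77 between models (adjusted p = 0.00295) was called under each alternative. humanlincRNA2253-_P1 (0.81), humanlincRNA1963-_P1 (0.63) and humanlincRNA1366-_P1 (0.37) were close to the threshold, with adjusted p of 0.0443, 0.0386 and 0.0474.

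Among probes lower in CnA, humanlincRNA0635+_P1 read -3.56, -3.36 and -4.61 in WT, -0.95, -1.24 and -1.49 in TAC, and -2.72, -2.16 and -3.03 in CnA. TAC stood above both other groups. It was 6.13-fold higher in TAC than in WT (limma adjusted p = 0.000319), 2.31-fold higher in CnA than in WT (adjusted p = 0.0176) and lower in CnA than in TAC by a change of -1.41 (adjusted p = 0.0272), a call that 6 of 22 alternatives lost. Its opposite strand, humanlincRNA0635-_P1, read -4.18, -2.98 and -6.66 in WT, where only 1 array read it, -2.62, -2.2 and -2.38 in TAC, and -2.50, -2.23 and -2.65 in CnA. It rose by 2.21 in TAC and 2.15 in CnA (limma adjusted p = 0.0352 and 0.0411), with a difference between models of -0.06 (adjusted p = 0.969). Both strands passed the filter through TAC and CnA, where they are high. Their calls against WT are thus no support, and the sizes rest in part on WT arrays that did not read the probe.

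humanlincRNA1394+_P1 and humanlincRNA1416-_P1 were also highest in TAC. The former read -4.14, -3.92 and -4.55 in WT, -2.71, -2.74 and -2.44 in TAC, and -3.49, -3.22 and -3.94 in CnA, with a difference between models of -0.92 (limma adjusted p = 0.0238). The latter differed by -0.89 (adjusted p = 0.0432), a call lost under 13 of 23 alternatives. humanlincRNA1587-_P1 read 0.21, -0.60 and 0.13 in WT, 0.39, 0.66 and 0.31 in TAC, and -0.69, -0.58 and -1.09 in CnA. CnA was lower than TAC by a change of -1.24 (adjusted p = 0.00886), while the WT arrays lay between, 1 of them at the CnA level. humanlincRNA2237-_P1 differed by -1.03 (adjusted p = 0.0456), a call lost under 14 of 23 alternatives.

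One probe was called in opposite directions in the models. humanlincRNA2101+_P1 read -3.23, -3.46 and -3.25 in WT, -2.70, -2.98 and -2.40 in TAC, and -3.65, -3.79 and -4.49 in CnA. No 2 groups overlapped, but the signal was dim. On CnA replicates 2 and 3 it lay below the lowest signal of any probe read there, -3.67 and -4.20. The probe thus passed the filter only through groups where it is higher than in CnA. Its calls that involve CnA are therefore no support. It changed by 0.62 in TAC (limma adjusted p = 0.0498, and -0.10 without scaling) and by -0.66 in CnA (adjusted p = 0.0403, and 0.11 with normexp), and the difference of -1.28 between the models had an adjusted p of 0.00765. The TAC call was kept under 7 of 22 alternatives and the CnA call under 9 of 21.

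The 4 probes with the smallest changes in both models among those read on all arrays stayed within 0.06 of WT. humanlincRNA2365+_P1 read -2.56, -2.91 and -2.53 in WT, -2.52, -2.62 and -2.81 in TAC, and -2.87, -2.63 and -2.52 in CnA. humanlincRNA0538+_P1 lay between -1.50 and -1.25 on all 9 arrays. humanlincRNA2262+_P1 and humanlincRNA0689-_P1 overlapped between all groups too. A change near 0 here is 0.32 below the median shift in TAC and 0.22 below it in CnA, so these probes are level only on the scaled signal.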

How the data were processed

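Per the file headers, each of the 9 arrays was scanned in 1 channel and read with Agilent Feature Extraction 11.0.1.1, and the headers name build mm9. A Cy5 channel that the labels mention has no values in the files used. The deposited scanner files hold for each spot a processed signal (a linear intensity from which the authors' scanner software had subtracted background) and flags for outliers, saturation and signal above background. Per the labels' protocols, ribosomal RNA was removed and RNA was primed at random. The authors also deposited log2 tables of these arrays. Their scale and processing are not given in the sources used here, but set against quantile-normalized log2 values of the processed signal their median absolute difference was 0.00291 or less, with 99.66% or more of values within 0.05. They served as an alternative.

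Signals were taken to log2, repeated spots of 1 probe were averaged, and each array's 75th percentile was subtracted. Controls and 130 probes with an outlier flag were left out. limma 3.58.1 in R 4.3.3 fitted 3 group coefficients over 9 arrays (lmFit, eBayes), with Benjamini-Hochberg adjustment over all 44224 tested probes and a threshold of 0.05. Strand pairs were fitted in the same way. Alternatives were quantile normalization, normexp background correction (offset 50, on median signals, since the files hold no mean signal), other filters, array weights, replicate and slide row blocks, a 2-fold minimum, only 2 groups in the fit, and leaving out each array. No scaling, cyclic loess, single slide rows, and row blocks and quantile normalization of strand pairs were chosen after seeing the data. Equal replicate numbers did not pair arrays (correlations of deviations from -0.219 to -0.023). The number of arrays limits the precision.

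On simulated data with 200 changed probes among 44224, the TAC comparison recovered 86% of changes of 2 log2 units and 51% of changes of 1. The CnA comparison recovered 75% and 54%. In the data a far larger share of tested probes was called, 60.1% in TAC and 56.8% in CnA. The recoveries therefore describe the simulated setting and not the sensitivity of these comparisons.

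The humanlincRNA probes, the alternatives and the rule for named probes were chosen with earlier results of these data known. Named were, per comparison, the 6 largest called rises and falls without overlap among probes read in both groups, the 4 largest bounds per direction, regions called oppositely by strand, the 4 largest strand differences, probes called oppositely in the models, 4 with the smallest change, and the 4 brightest and dimmest. The other-strand probe of a named one may stand beside it. Sequences, coordinates and a gene annotation of these probes were not used here.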

Additional observations from a re-analysis of the deposited data

Results flagged for a closer look

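humanlincRNA2101+_P1 stood out because the 2 models differed from WT in opposite directions, with a difference of -1.28 between CnA and TAC (limma adjusted p = 0.00765). All 3 TAC arrays were above and all 3 CnA arrays below the 3 WT arrays, at signals between -4.49 and -2.40. CnA replicates 2 and 3 lay below the lowest signal of any probe read there. The calls of this probe that involve CnA are therefore no support. The cause was not tested.

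humanlincRNA2047-_P1 entered no comparison, since its spot on TAC replicate 3 carried an outlier flag, though its signal cleared background on each of the 9 arrays. Its values were -2.36, -2.70 and -2.51 in WT, -1.76 and -2.06 on the other 2 TAC arrays, and -2.07, -1.80 and -1.62 in CnA. The CnA mean stood 0.69 above the WT mean and the TAC mean of the unflagged arrays 0.61 above it, without a test.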

How the results depend on the processing

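Most counts of called probes kept within 1.5 times of their value under the alternatives, 107 of 135, with 5 larger and 23 smaller. Direction was not part of this tally. The fits without scaling count as kept, with 227 calls in TAC and 272 in CnA, though most directions turned. Without scaling 24 were higher and 203 lower in TAC, against 295 and 35 with it. In CnA it was 38 and 234, against 237 and 58. In TAC against WT (330 called) a 2-fold minimum left 71, normexp background correction gave 497, the slide row as a fixed block 194, cyclic loess 198 and the shared slide row alone 24. In CnA against WT (295) a 2-fold minimum left 88 and the fixed block 74 (11%, against 18.9% of all tested probes). In CnA against TAC (48) a 2-fold minimum left 10 (1.49%, against 6.28%) and no filter on dim probes 31 (2.55%, against 10.3%). Array weights gave 137 (20.4%, against 34.1%), the fixed block 12 (1.79%, against 6.55%) and a 2-group fit 78 (11.6%, against 27.2%). Over the 3 groups (F test) 346 were called (51.6%, against 64.3%). There a 2-fold minimum left 104 (15.5%, against 32.8%) and the fixed block 144 (21.5%, against 36.4%). Among strand pairs the fixed block gave 11 in TAC (25), 9 in CnA (37) and 0 between the models (2), where limma had 9 at an unadjusted p under 0.05. The shares in TAC and CnA were 8.8% and 7.2%, against 11.3% and 4.79% of all strand pairs. Between the models 0.342% of all strand pairs were called. Between the models normexp gave 5 strand pairs (4.0%, against 6.16%) and a looser filter on pairs 6 (3.11%, against 4.43%). With the replicate number as a block the counts were 301 in TAC (44.9%, against 55.6%) and 264 in CnA (39.3%, against 52.2%). They were 22 between the models (3.28%, against 12.1%) and 296 by F test (44.1%, against 58.1%). Strand pairs numbered 21, 33 and 1 (16.8%, 26.4% and 0.8%, against 23.2%, 31.8% and 0.799% of all strand pairs). The replicate numbers did not pair the arrays.

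Leaving out 1 array gave 242 to 362 calls in TAC, 241 to 314 in CnA, 14 to 66 between the models and 275 to 360 by F test, and 18 to 37, 33 to 40 and 1 to 3 strand pairs. Between the models 1 strand pair was left without TAC replicate 2, TAC replicate 3 or CnA replicate 1.

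Of values of single probes and regions under the alternatives, 25 turned sign. Without scaling, values in TAC turned to -0.04 for humanlincRNA0065+_P1, -0.19 for humanlincRNA0965-_P1, -0.11 for humanlincRNA1828-_P1, -0.10 for humanlincRNA2101+_P1 and -0.29 for humanlincRNA2314-_P1. In CnA they turned to -0.09 for humanlincRNA0198-_P1 and humanlincRNA0518-_P1, -0.26 for humanlincRNA0881+_P1, -0.08 for humanlincRNA0965-_P1, -0.06 for humanlincRNA1828-_P1, -0.03 for humanlincRNA1995+_P1, -0.18 for humanlincRNA2246+_P1 and -0.54 for humanlincRNA2268+_P1. With normexp, humanlincRNA0191-_P1 turned to 0.07 and humanlincRNA2314+_P1 to 0.18 in TAC, humanlincRNA0881-_P1 and humanlincRNA2101+_P1 to 0.11 and humanlincRNA1522-_P1 to 0.21 in CnA, and humanlincRNA1382+_P1 to -0.01 between the models. The uncalled change of humanlincRNA2268+_P1 in CnA was -0.01 with quantile normalization, with normexp and quantile normalization and in the deposited table, -0.12 with cyclic loess, and ranged from -0.13 to 0.26 with 1 array left out. Apart from the absence of scaling and of single arrays in these fits, the cause was not tested. Dim probes close to background limit what can be read.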
